A study of Mus musculus with 12 samples.

Results

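Binding of RelA and Ikaros was examined at the loci of Nos2, Acod1, Sod2 and Ptgs2, which encode enzymes that macrophages induce during inflammation. The loci were chosen with earlier results of these lists known, and their hotspots were selected by position alone. A hotspot, a stretch enriched for sequence tags and called by the authors in a single library, counted when at least 1 bp lay in a window on mm9. The windows were chromosome 11 at 78690000 to 78800000 for Nos2, chromosome 14 at 103420000 to 103480000 for Acod1 (also named Irg1), chromosome 17 at 13180000 to 13220000 for Sod2 and chromosome 1 at 151880000 to 151980000 for Ptgs2. They held 63 of the 49690 hotspots of the 9 immunoprecipitated libraries, which joined by overlap into 17 of 32740 regions. Input DNA had 0 of its 765 hotspots there.

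The cells were bone marrow derived macrophages of the C57BL/6J background, primary cells grown from marrow and treated with lipopolysaccharide (LPS), a cell wall component of Gram-negative bacteria, for 0, 3 or 8 h. RelA was mapped in wild type cells and in cells labelled littermate control, Ikaros in wild type cells only, and each series covered the 3 times. Input DNA of wild type cells was the background, and the littermate control and Ikzf KO inputs were not analysed here. Every group held 1 library, which leaves no replicate spread and no test, and each statement about time or genotype label compares single libraries. Genotype label, animals and library cannot be told apart between the RelA series. Some file names carry another time than the labels, and the labels were used. Macrophage identity could not be checked, since these lists measure binding and not expression.

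RelA is a subunit of NF-kB that enters the nucleus after LPS is sensed and binds kB sites near inflammatory genes. Ikaros, encoded by Ikzf1, is a zinc finger protein best known from lymphocytes that can repress or activate its targets. Nos2 makes nitric oxide from arginine. Acod1 makes itaconate in mitochondria, Sod2 is the mitochondrial manganese superoxide dismutase, and Ptgs2 (cyclooxygenase) starts prostaglandin synthesis.

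The sequence just upstream of the start of 3 of these genes is shown so that the letters both factors are known to read can be looked for. It comes from RefSeq on GRCm38.p6, plus strand in each case, and covers 250 bases ending at the base before the start. The Acod1 stretch is chr14:103046762-103047011, that of Sod2 is chr17:13007589-13007838 and that of Ptgs2 is chr1:150099781-150100030. These positions are on another build than the mm9 hotspots, so no hotspot was placed on them. Capitals mark the NF-kB consensus and TGGGAA, a core read by Ikaros, each searched on both strands.
Acod1: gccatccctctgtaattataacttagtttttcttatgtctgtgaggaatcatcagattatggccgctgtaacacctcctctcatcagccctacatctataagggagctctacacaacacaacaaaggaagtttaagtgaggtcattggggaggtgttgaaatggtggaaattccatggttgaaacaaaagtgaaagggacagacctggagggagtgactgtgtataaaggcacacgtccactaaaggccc
Sod2: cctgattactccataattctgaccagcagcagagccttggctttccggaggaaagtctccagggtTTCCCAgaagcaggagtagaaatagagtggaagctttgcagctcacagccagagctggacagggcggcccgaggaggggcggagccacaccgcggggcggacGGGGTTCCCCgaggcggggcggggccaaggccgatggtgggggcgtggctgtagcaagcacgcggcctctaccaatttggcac
Ptgs2: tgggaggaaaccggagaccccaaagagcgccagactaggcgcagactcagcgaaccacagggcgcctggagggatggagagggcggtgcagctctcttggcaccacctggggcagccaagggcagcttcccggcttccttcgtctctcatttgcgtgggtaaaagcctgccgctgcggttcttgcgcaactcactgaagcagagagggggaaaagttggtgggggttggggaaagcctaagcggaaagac
The Sod2 stretch holds GGGGTTCCCC, whose letters match the NF-kB consensus read on either strand, from 83 to 74 bases before the start. It also holds TTCCCA, the reverse complement of TGGGAA, from 185 to 180 bases before it, and these matches do not overlap. Neither set of letters is in the Acod1 or the Ptgs2 stretch. Of 32851 stretches of this length in the RefSeq table, 3.9% hold the NF-kB consensus and 21.6% hold TGGGAA.

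For each hotspot the authors give the highest and the mean tag density, whose scale is not stated, and a z score. Each list stops at its own lowest z score, between 8.64 and 10.9 in the 9 lists, so absence from a list may be binding under that limit. Densities, z scores and ranks describe a hotspot within its own list of between 47 and 13796 hotspots, and are no measure of change between libraries. Shares of whole lists are printed beside the counts, with exact Clopper-Pearson 95% intervals that reach at most 2.27 percentage points to either side and cover counting error alone. Regions are numbered from the low end of each window.

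RelA was listed at Sod2 alone before LPS and at all 4 loci after it. In wild type cells the windows held 1 RelA hotspot at 0 h, 13 at 3 h and 9 at 8 h. In littermate cells they held 2, 9 and 6, and Ikaros had 0 at 0 h, 9 at 3 h and 14 at 8 h. The counts were thus highest at 3 h in both RelA series and at 8 h for Ikaros, where the whole lists were also longest in each series. Of the 13 wild type RelA hotspots at 3 h, 9 lay at Acod1, 2 at Sod2, 1 at Nos2 and 1 at Ptgs2. Hotspots of 1 locus are neighbours and not independent of each other.

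Of the 13 wild type RelA hotspots at 3 h, 1 was present at 0 h, against 0.744% of the whole list. At 8 h, 7 of the 13 were present, against 31.3% of the list. With the lists held to a common z score floor of 10.9 it was 5 of 9, against 42.1%. All 9 wild type hotspots at 8 h had been listed at 3 h, which for 9 members is near the 83.9% of the list. Of the 9 littermate hotspots at 3 h, 5 were present at 8 h, against 14.4%. That list had a median highest density of 4.11, whereas the members had 10.9 or more. No share held to a density floor was computed for this comparison.

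Between the RelA series, 5 of the 13 wild type hotspots at 3 h overlapped a littermate hotspot of that time, near the 34.4% of the whole list. At 8 h it was 4 of 9, against 44.0%, again near the background. In the other direction, 8 of 9 littermate hotspots at 3 h were in the wild type list, against 17.3%, and 4 of 6 at 8 h, against 15.8%. The littermate list at 3 h is rich in sparse hotspots, with a median highest density of 4.11, whereas the members had 10.9 or more. Among its 2091 hotspots with a highest density of at least 10, 78.1% were in the wild type list held to the same floor, where the members' count was still 8 of 9. With 50% reciprocal overlap it was 4 of 9, against 14.8% of the list. No density floor was applied to the share at 8 h, where the littermate list had a median highest density of 4.56.

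RelA and Ikaros were listed together at most of the RelA hotspots. Of the 13 wild type RelA hotspots at 3 h, 10 overlapped Ikaros at 3 h, against 54.0% of the list, and 12 overlapped Ikaros at 8 h, against 66.5%. Of the 9 at 8 h, 8 overlapped Ikaros at 8 h, near the 80.5% of the list. These counts use 1 bp of overlap. With 50% of each hotspot required, they were 5 of 13, 6 of 13 and 4 of 9, against 42.1%, 51.4% and 61.4% of the lists. The 5 lost at 3 h all lay inside the wider Ikaros hotspots of Acod1 regions 5 and 6.

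Seen from Ikaros, 7 of its 9 hotspots at 3 h carried RelA, against 37.1%, and 6 of its 14 at 8 h did, against 10.8%. None of the 9 at 3 h was present at 0 h, where 10.6% of the list was, which for 9 members is near that share. All 9 were present at 8 h, also near the 82.1% of the list, and 9 of the 14 at 8 h had been present at 3 h, against 42.2%. Counted as regions, 10 of the 17 carried both factors in some library, against 12.0% of the 32740 regions. RelA alone was in 3, against 54.2%, and Ikaros alone in 4, against 33.8%. The sparse hotspots of the littermate lists are part of that background. Single regions are described for 8 of them, namely the one with the strongest wild type RelA hotspot at 3 h in each window and those listed in 3 or more libraries. Every z score of these regions is given, and widths, densities and ranks for part of their hotspots.

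Sod2 carried the strongest RelA hotspot of the 4 loci. Its region 4, on chromosome 17 at 13202574 to 13203628, was listed in 8 of the 9 libraries, all but Ikaros at 0 h. In wild type cells RelA reached z scores of 20.1 (0 h), 111 (3 h) and 93.5 (8 h), which placed it at rank 4 of 47, rank 2 of 4972 and rank 4 of 1878. Its highest RelA density was 37.6, 164 and 132, and its width was 624, 1054 and 1006 bp. It stood near the top of the wild type RelA lists of LPS-treated cells. Its place at 0 h depended on the removal of input hotspots, which took 36 of 83 from that list: it was at percentile 93.6 by z score after removal and at 83.1 in the list as deposited.

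In littermate cells RelA in the same Sod2 region reached z scores of 11.7 (0 h), 89.1 (3 h) and 85.8 (8 h). These were rank 4597 of 5805, rank 8 of 9999 and rank 2 of 5231. By highest density, which was 26.0, 132 and 166, the hotspots had rank 123, rank 1 and rank 1. The place at 0 h thus depended on the measure, low in the list by z score and within its upper 2.12% by density. The median highest density of that list was 4.56. The widths were 378 bp at 0 h, 840 bp at 3 h and 873 bp at 8 h.

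Ikaros was listed in this Sod2 region at 3 h with a z score of 30.2, rank 393 of 7109, and at 8 h with 51.8, rank 148 of 13796. Its highest density was 55.0 and 99.1, and its width 768 and 795 bp. At each time the wild type RelA hotspot contained the whole Ikaros hotspot. The centres of the RelA and Ikaros hotspots were 7.0 bp from each other at 3 h and 30.5 bp at 8 h. Presence in just these 8 libraries was found in 15 of the 32740 regions, or 0.0458%, this one included. That pattern needs a place in the wild type RelA list at 0 h, which held only 47 hotspots.

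The other 5 Sod2 regions were each listed in 1 or 2 libraries. Region 3 held Ikaros at 8 h (z 15.4) at 13199752 to 13200344 and wild type RelA at 3 h (z 9.78) at 13200321 to 13200877, so that the hotspots met only at their ends. Regions 1 and 2 held Ikaros at 8 h alone, with z scores of 14.9 and 10.5. Regions 5 and 6, near the high end of the window, were littermate RelA hotspots of low density. Region 5 at 8 h had a highest density of 6.24 (z 18.9, rank 550 of 5231), and region 6 at 0 h had 3.42 (z 12.9). Neither place was in a wild type list at any time.

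**Figure D1:**
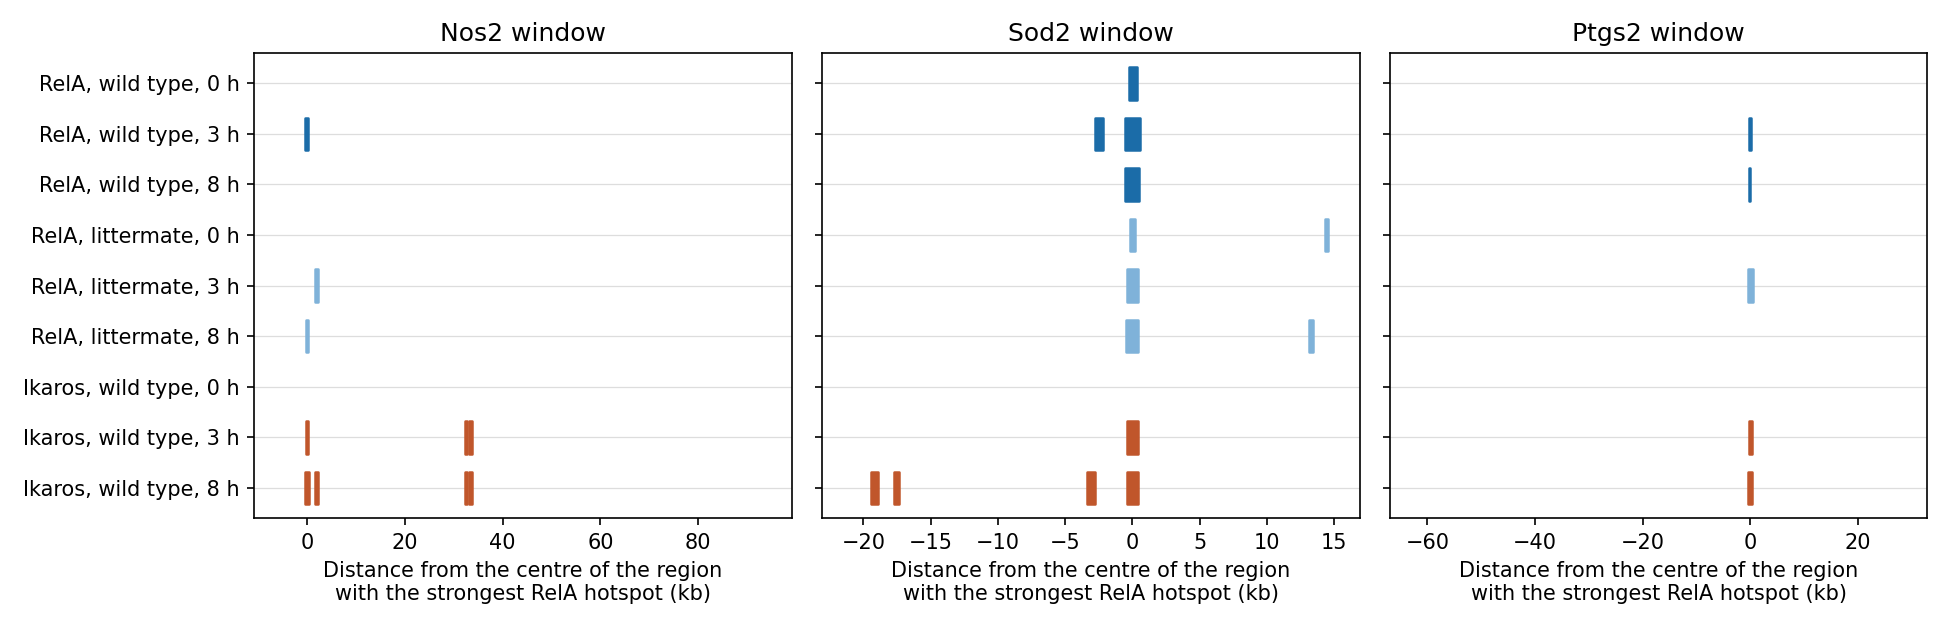
Hotspots in the Nos2, Sod2 and Ptgs2 windows, 1 panel per locus and 1 row per library. The horizontal axis is the distance in kb from the centre of the region with the strongest RelA hotspot. Each bar is a hotspot with an outline that widens it, so the widths of short hotspots are not to scale. Sod2 region 4 is filled in 8 of 9 rows, Nos2 region 1 in 4 and the single Ptgs2 region in 5.

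Acod1 held 34 of the 63 hotspots and the widest of them. The neighbouring regions 4, 5 and 6 lay 30 and 23 bp apart and formed a nearly unbroken Ikaros stretch. Shares are of each library's own span, from its first to its last listed base in these regions. Ikaros hotspots covered 13756 of 13868 bp (99.2%) at 3 h and 13822 of 13954 bp (99.1%) at 8 h. Wild type RelA hotspots covered 9513 of 14032 bp (67.8%) at 3 h in 6 pieces and 4518 of 13105 bp (34.5%) at 8 h in 4 pieces. Littermate RelA covered 4683 of 13480 bp (34.7%) at 3 h in 5 pieces and 1807 of 12605 bp (14.3%) at 8 h in 2. Ikaros was therefore listed over almost all of the stretch at both times, while listed RelA was in pieces and took a smaller part at 8 h in both series. Both RelA lists were also shorter at 8 h and ended at a higher z score, 10.9 against 8.88 in wild type and 10.5 against 8.64 in littermate cells, and the part this plays was not tested.

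The largest piece was Acod1 region 6, on chromosome 14 at 103450319 to 103459869. Its Ikaros hotspot was 9491 bp wide at 3 h, behind only 1 of 7109, a hotspot of 10296 bp on chromosome 12. At 8 h it was 9540 bp wide, the widest of 13796, and the next was 6303 bp. The z score was 81.1 at 3 h (rank 14) and 80.8 at 8 h (rank 20), the highest density 151 and 170, and the mean density 47.4 and 51.0. It was wide and dense at once, ahead of the Ikaros hotspot of Sod2 by each of these measures.

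RelA within Acod1 region 6 was lower than Ikaros in rank by z score and by highest density, but not in every list by width. Wild type cells had 4 RelA hotspots there at 3 h, with z scores of 13.4, 13.1, 18.1 and 27.2 from the low end. The last was 3111 bp wide and rank 539 of 4972 by z score. At 8 h there were 2, with z scores of 12.9 and 18.1, and littermate cells had 2 at 3 h (12.2 and 11.3) and 1 at 8 h (12.6). By width the wild type hotspot of 3111 bp was rank 7 of 4972, and one of 1345 bp at 8 h rank 9 of 1878. In littermate cells the widest was 1814 bp at 3 h, rank 2 of 9999, and 546 bp at 8 h, rank 505 of 5231. The RelA hotspots covered 57.8% of the Ikaros hotspot at 3 h and 19.6% at 8 h in wild type cells, and 24.6% and 5.72% in littermate cells. The pieces listed at 8 h lay in the part nearer the high end in both series.

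The strongest RelA at this locus was in Acod1 region 4, at 103445716 to 103449482. In wild type cells it was 1 hotspot of 3664 bp at 3 h, with a highest density of 91.0 and a z score of 55.3, rank 61 of 4972. At 8 h it was a hotspot of 2134 bp, the widest of the 1878, with a density of 97.1 and a z score of 50.1 (rank 50), and a second of 515 bp with a z score of 12.0. In littermate cells it was 3 hotspots at 3 h, of 897, 1183 and 270 bp with z scores of 48.5, 12.2 and 9.10, and 1 at 8 h, of 1261 bp with 37.1 (rank 57 of 5231). The piece at the low end was the strong one in every library that split the region, and at 8 h it was the widest hotspot of either 8 h list.

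Ikaros in Acod1 region 4 was 3521 bp wide at 3 h and 3567 bp at 8 h, with z scores of 58.5 (rank 45) and 57.9 (rank 94) and highest densities of 128 and 129. Wild type RelA covered 97.6% of it at 3 h and 69.2% at 8 h, and littermate RelA 62.1% and 33.7%. Region 5, at 103449512 to 103450296, carried Ikaros at 3 h (z 21.1) and 8 h (z 21.8) and RelA only in wild type cells at 3 h, with a z score of 9.93, rank 4011. Hotspots of 2000 bp or wider, a width chosen after the values were seen, numbered 2 of 9 Ikaros members at 3 h against 0.661% of that list, and 2 of 14 at 8 h against 0.290%. For wild type RelA they were 2 of 13 at 3 h against 0.442%, and at 8 h 1 of 9 against 0.0532%, which is a single hotspot of the list. All of them lay in Acod1 regions 4 and 6. The littermate lists were not counted at this width.

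**Figure D2:**
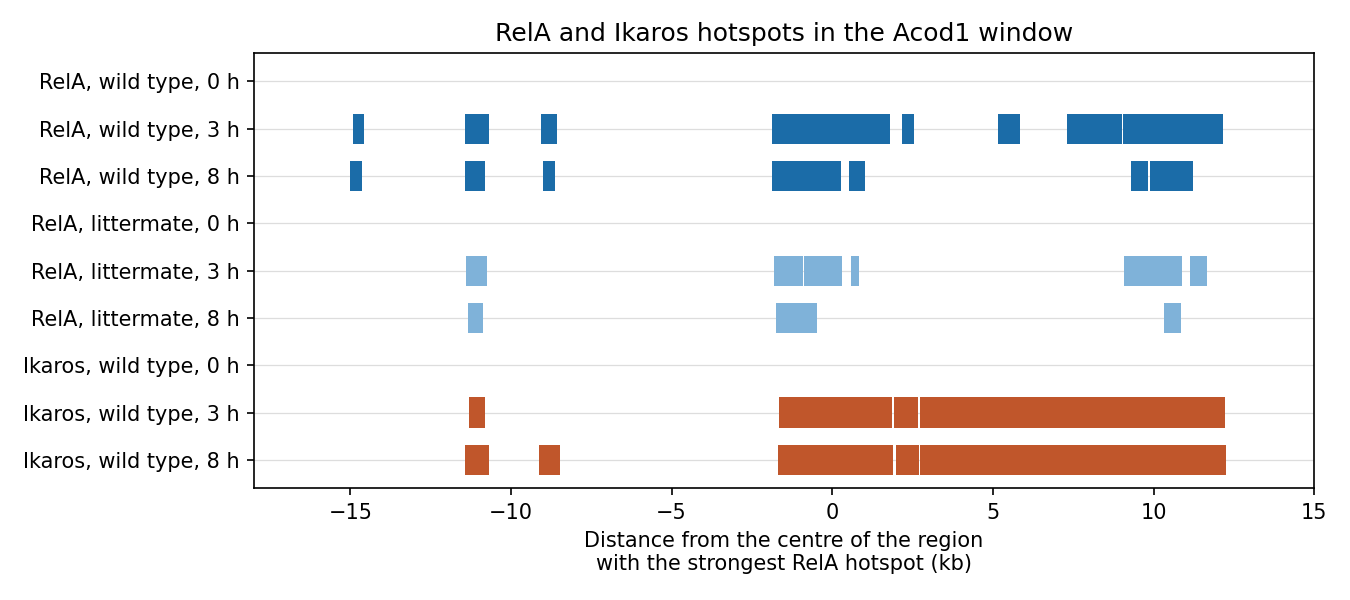
Hotspots of the Acod1 window by library, drawn to scale against the distance in kb from the centre of region 4. Ikaros fills the stretch from region 4 to region 6 almost without a break at 3 and 8 h, with 99.2% and 99.1% covered, and RelA fills it in 2 to 6 pieces.

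**Figure D3:**
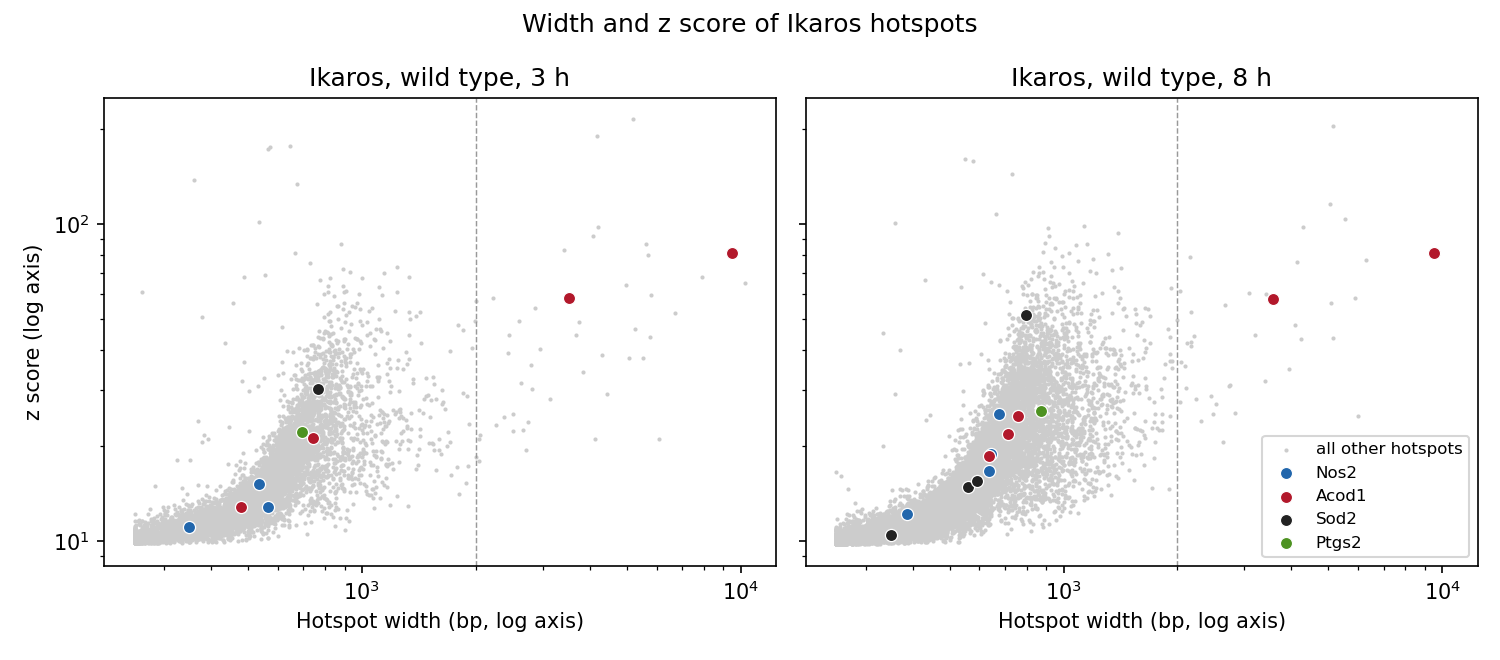
Width in bp against z score for every Ikaros hotspot at 3 h and at 8 h, both axes logarithmic, with the members of the 4 windows coloured by locus and a dashed line at 2000 bp. The Acod1 hotspots of 9491 and 9540 bp lie far to the right in each list, and all members of the other loci lie left of the line.

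Toward the low end of the Acod1 window were 3 narrower regions. Region 2, at 103436158 to 103436922, was listed in all 6 libraries of LPS-treated RelA and Ikaros samples. Its RelA z score was 26.6 at 3 h and 21.0 at 8 h in wild type cells, ranks 571 and 568, and 24.2 and 13.05 in littermate cells, ranks 1794 and 2422. Its highest RelA density was 58.3, 42.3, 31.0 and 22.1 in the same order. Ikaros had 12.8 at 3 h (rank 4060) and 24.7 at 8 h (rank 1925), and the centres of wild type RelA and Ikaros were separated by 2.0 bp at 3 h and by 57.0 bp at 8 h. This narrow place had the same presence pattern as the broad regions 4 and 6, one found in 377 regions, or 1.15%.

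Acod1 region 3, at 103438481 to 103439115, held wild type RelA at 3 h (z 11.4, rank 3124) and 8 h (z 11.2, rank 1790) and Ikaros at 8 h only (z 18.6, rank 3995). By highest density that Ikaros hotspot stood higher, at rank 436. Region 1 held wild type RelA alone, with z scores of 9.43 at 3 h and 11.2 at 8 h, and was the only Acod1 region without Ikaros. Each of regions 1, 3 and 5 was missing from both littermate lists of LPS-treated cells.

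Nos2 had modest RelA, which in its region 1 was listed at different times in the RelA series. Nos2 region 1, on chromosome 11 at 78700487 to 78701163, held RelA in wild type cells at 3 h and not at 8 h, and in littermate cells at 8 h and not at 3 h. The wild type hotspot was 546 bp wide with a highest density of 25.0 and a z score of 15.1, rank 1850 of 4972. The littermate one was 251 bp wide with a density of 13.5 and a z score of 10.9, rank 4602 of 5231, close to that list's lowest z score of 10.5. By density the littermate hotspot stood higher within its list, at rank 962, and the wild type one at rank 1286, though its density was the lower of these. The median highest density was 4.56 in that littermate list and 18.5 in that wild type list. This difference in times was not tested.

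Ikaros in Nos2 region 1 had a z score of 15.1 at 3 h (rank 2803, density 34.7, 534 bp) and 25.2 at 8 h (rank 1811, density 42.9, 676 bp). Its centre at 3 h lay 18.0 bp from that of wild type RelA. Region 2, a gap of 1.31 kb further on, held littermate RelA at 3 h (z 13.4) and Ikaros at 8 h (z 18.8). Regions 3 and 4 followed after 30.1 kb and held Ikaros alone at both 3 h and 8 h, with z scores of 11.1 and 12.2 in region 3 and 12.8 and 16.6 in region 4. The Ikaros regions of Nos2 were 4, those with any RelA 2, and no region there had RelA in more than 1 library of either series.

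Ptgs2 had a single region, where wild type RelA was near the end of its lists and Ikaros was not. It lay on chromosome 1 at 151946583 to 151947522. Wild type RelA had a z score of 9.0 at 3 h, rank 4858 of 4972 in a list that ends at 8.88, and 11.0 at 8 h, rank 1846 of 1878 in a list that ends at 10.9. Both hotspots stood just above the end of their lists, with highest densities of 11.3 and 14.4 and widths of 405 and 257 bp. In littermate cells RelA was listed at 3 h with a z score of 18.3, rank 3363 of 9999, a density of 21.6 and a width of 809 bp, and it was not listed at 8 h. By density that littermate hotspot had rank 691, within the upper 6.91% of its list, while the wild type ones had rank 4551 and rank 1804, again near the end. The median highest density was 4.11 in that littermate list, and 18.5 (3 h) and 25.5 (8 h) in the wild type lists.

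Ikaros at Ptgs2 had a z score of 22.1 at 3 h (rank 1016 of 7109) and 25.7 at 8 h (rank 1706 of 13796). Its highest density was 29.2 and 38.4, and its width 695 and 871 bp. Its centre lay 85.0 bp from that of wild type RelA at 3 h and 117 bp at 8 h, and 3.0 bp from that of littermate RelA at 3 h. By z score it stood in the upper 14.3% and 12.4% of the Ikaros lists, and by density in the upper 23.5% and 13.6%. By density littermate RelA at 3 h thus stood higher in its list than Ikaros did, and by z score lower. The lists differ in density, with a median highest density of 4.11 for littermate RelA at 3 h and 22.0 for Ikaros at 3 h. The density itself was 21.6 for that RelA hotspot and 29.2 for Ikaros at 3 h.

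**Figure D4:**
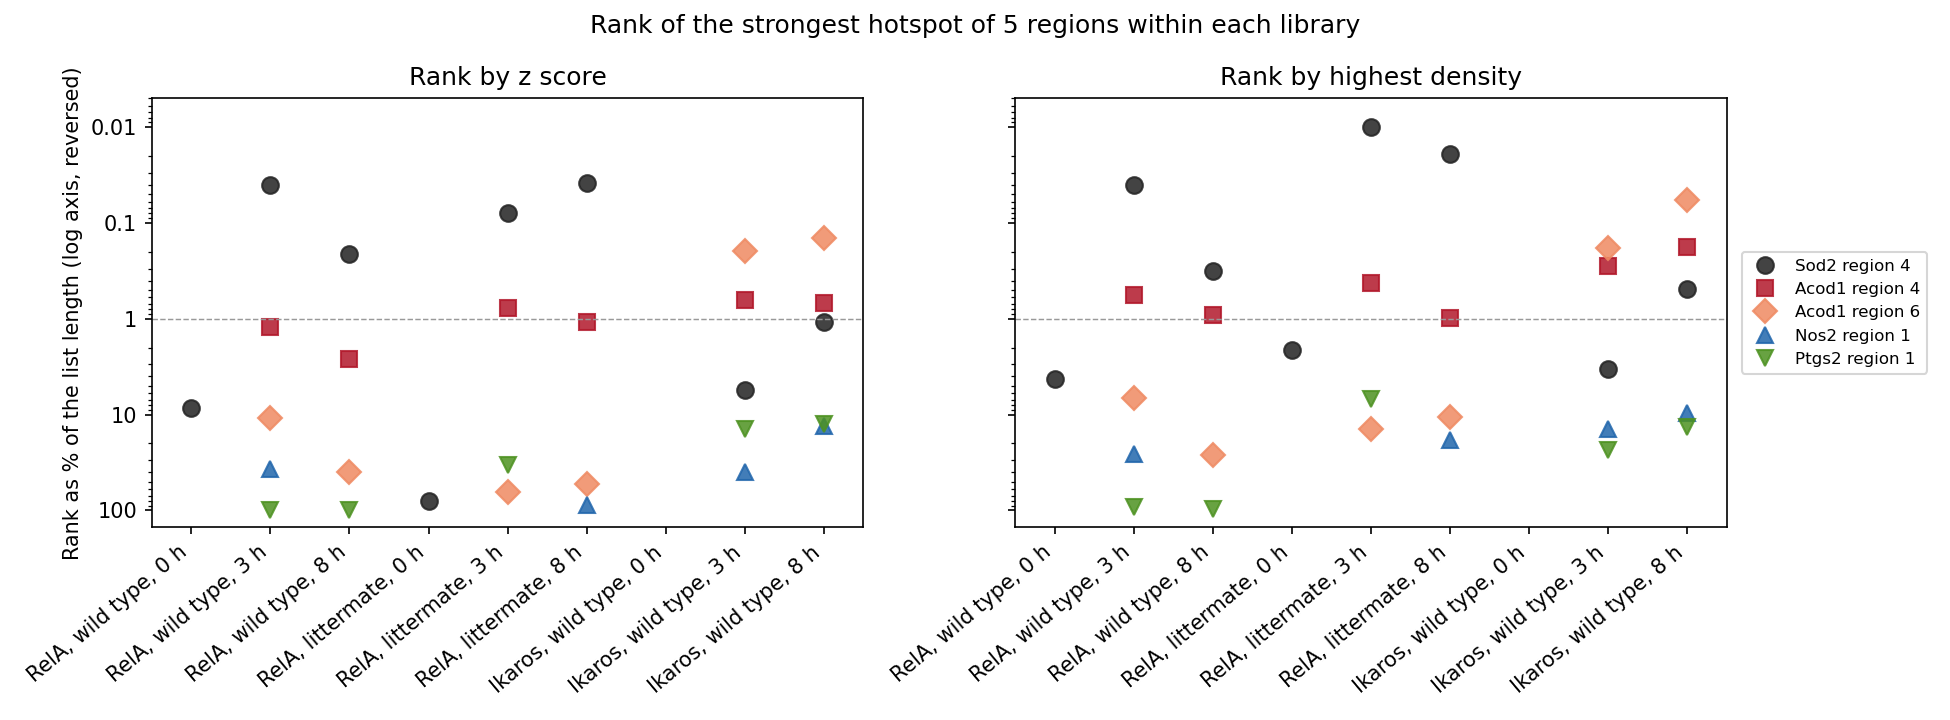
Rank as a percentage of the list, on a reversed logarithmic axis so that the top of a list is uppermost, by z score and by highest density, for Sod2 region 4, Acod1 regions 4 and 6, Nos2 region 1 and Ptgs2 region 1 in each library where they were listed. Sod2 leads in the RelA lists of LPS-treated cells, Acod1 region 6 leads in the Ikaros lists, and the dashed line marks 1%.

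The loci were also ordered by z score within each list. In the wild type RelA list at 3 h, the best hotspot of each window had rank 2 at Sod2, 61 at Acod1, 1850 at Nos2 and 4858 at Ptgs2. In the Ikaros list at 3 h the best ranks were 14 at Acod1, 393 at Sod2, 1016 at Ptgs2 and 2803 at Nos2. At 8 h the Ikaros ranks were 20, 148, 1706 and 1811 in the same order. In the littermate RelA list at 3 h the best ranks were 8 at Sod2, 77 at Acod1, 3363 at Ptgs2 and 5580 at Nos2. Ptgs2 thus stood above Nos2 there and below it in the wild type RelA list at 3 h. The 8 h lists went the other way. Wild type RelA then listed Ptgs2 (rank 1846) and not Nos2, and littermate RelA listed Nos2 (rank 4602) and not Ptgs2. With 1 library per group no neighbours in these orders can be tested.

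The regions whose z score percentiles over the 9 libraries were nearest to those of each locus's strongest RelA region were also found. An unlisted library counted as percentile 0, so a near region could be listed in other libraries. For Acod1 region 4 the nearest lay on chromosome 11 at 64468144 to 64469388, with a mean absolute difference of 0.453 percentile points, and for Nos2 region 1 on chromosome 15 at 63892350 to 63893171, with 1.46. For Ptgs2 it lay on chromosome 9 at 88851146 to 88852778, with 2.44, and for Sod2 on chromosome 10 at 18734572 to 18735865, with 3.47. A region on chromosome 6 at 128784233 to 128784964 was also at 2.44 from Ptgs2. The nearest regions were listed in 6 libraries for Acod1, 3 for Nos2, 4 for Ptgs2 and 7 for Sod2. The members themselves were listed in 6, 4, 5 and 8. With percentiles of density, 2 of the 3 nearest were found again for Acod1 and for Ptgs2, 1 for Sod2 and 0 for Nos2.

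The window edges decided little at Nos2 and Sod2, where no hotspot lay within 20 kb outside. Their outermost regions lay 10.5 and 65.5 kb inside the edges at Nos2 and 3.65 and 2.35 kb inside at Sod2. At Acod1, 8 hotspots lay just before the window, all in 2 places, of which the nearer held wild type RelA at 3 h (z 18.4) and 8 h (z 22.3) and littermate RelA at 3 h (z 23.7) and 8 h (z 18.1). The nearest member inside, region 1, was 12.6 kb from that edge and had lower z scores. At Ptgs2, 3 Ikaros hotspots lay between 12.1 and 18.4 kb after the window, with z scores of 12.9, 13.9 and 20.6.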

How the data were processed

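Hotspots were listed for 6 RelA, 3 Ikaros and 1 input library of mouse macrophages. Per the file headers, the authors deposited for each hotspot its mm9 position, its highest and mean tag density (a signal of unstated scale), a z score and a p-value. Densities and scores were used to describe and rank hotspots within a list, and the deposited p-values were not used. CASAVA is named, without a role, in the submitters' processing notes. Aligner, caller, threshold, treatment of input and sequencing depth: not given in the sources used here. The files do not state whether starts count from 0 or 1, so positions are printed as deposited.

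Hotspots overlapping input by 1 bp or more were removed, which took none of the members. Ranks are places in the remaining list by z score unless density is named, and regions are hotspots of the 9 lists merged by overlap. The members, windows and regions described singly (the strongest wild type RelA hotspot at 3 h of each window, and regions in 3 or more libraries) were chosen with earlier results of these data known. The nearest 3 regions were those with the smallest mean absolute difference in percentile. Shares have exact Clopper-Pearson 95% intervals. Alternatives kept input hotspots, set a density floor of 10 or a common z score floor, widened windows by 20 kb, required 50% reciprocal overlap, or ranked by density. A planned list of other effector genes near hotspots was not run, since no mm9 annotation was used here. Overlap was tested on simulated data, and merging was run on them without a check of its result. Python 3.11.15, pandas 2.3.3, numpy 2.4.6, scipy 1.17.1 and matplotlib 3.10.9 were used.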

Additional observations from a re-analysis of the deposited data

Results flagged for a closer look

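At 3 places the RelA hotspot count went up in one series and down in the other, wild type against littermate, and none of these differences was tested. In the Sod2 window it changed by 1 from 0 to 3 h in wild type cells and by -1 in littermate cells, and from 3 to 8 h by -1 and 1. These changes came from regions 3, 5 and 6, while region 4 was listed throughout. Region 5, in littermate cells at 8 h, was not low in its list by z score, at rank 550 of 5231. In Nos2 region 1 it changed from 3 to 8 h by -1 in wild type cells and by 1 in littermate cells. In Acod1 region 4 it changed from 3 to 8 h by 1 in wild type cells and by -2 in littermate cells, which counts the pieces into which the region was split, since RelA was listed there at both times in both series.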

How the results depend on the processing

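Of 81 alternative values for 18 main counts and shares, 75 stayed within 1.5 times the main count or the counting interval of the main share, and 6 moved. Keeping input hotspots could move none, since no member overlapped input. The counting intervals of such small shares are wide, so staying within them says little. Ikaros hotspots at 3 h with RelA at 3 h went from 77.8% to 55.6% at a common z score floor, counted as staying. With a density floor of 10, the littermate RelA list at 0 h kept 1 hotspot in the windows in place of 2. With 50% reciprocal overlap, littermate RelA hotspots in the wild type list at 3 h fell to 44.4% of members from 88.9%. Under the same rule, wild type RelA hotspots overlapping Ikaros fell to 38.5% from 76.9% (3 h with 3 h), to 46.2% from 92.3% (3 h with 8 h) and to 44.4% from 88.9% (8 h with 8 h). With a common z score floor of 10.9, wild type RelA at 3 h with Ikaros at 8 h was 9 of 9, or 100%. That floor removed 6 members, the Ptgs2 RelA hotspot of wild type cells at 3 h among them. Of the 23 percentiles of the strongest regions, 19 were higher by density than by z score and 3 lower. The planned list of other effector genes was not run. Depth is unknown, so an unlisted place cannot be told from one under a list's lowest z score.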
